A study of Macaca fascicularis with 10 samples.

Results

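GAPDH, CFL1 and RPL38 are 3 housekeeping genes, genes that most cells express for basic upkeep, and they are 3 of the 7229 gene rows in a table of parental allele counts from macaque brain. They were chosen by name because the balance of their alleles had been seen to swing between animals, so their shares below are a description and carry no test. Total RNA of the dorsal raphe nucleus, where serotonin neurons of the brainstem are gathered, was sequenced from 10 female cynomolgus macaques (Macaca fascicularis). Each has its mother and father named in the labels, and all 10 form 1 group, with no treatment, altered allele or age in the labels used here. For each gene and daughter, the table counts reads assigned to the maternal and to the paternal allele. The measurement is therefore the balance of the 2 alleles inside 1 animal, given here as the paternal share, which is how many percent of the reads told apart for a gene fall in the paternal column. Numbers 1 to 10 for the daughters follow the order of the labels.

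An autosomal gene is usually read from both parental copies, and a copy can be read more strongly than the other when the regulatory sequence beside it differs, when the gene is imprinted, or when single cells settle on 1 copy. GAPDH encodes glyceraldehyde-3-phosphate dehydrogenase, the glycolytic enzyme that oxidises glyceraldehyde 3-phosphate and makes NADH, and it is widely used as a reference gene for expression measurements. CFL1 encodes cofilin, which severs and depolymerises actin filaments and shapes dendritic spines in neurons. RPL38 encodes a small protein of the large ribosomal subunit that takes part in the translation of particular developmental messages. All 3 genes are known to have processed copies elsewhere in primate genomes, so the assignment of their reads is uncertain, and the part of such copies in the counts was not tested.

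Allelic reads ranged from 30090 in daughter 1 to 999471 in daughter 6, and 12 transfer RNA rows took 31.4% to 34.8% of them. The tissue label was set against its markers. TPH2, which catalyses the first step of serotonin synthesis in neurons, had allelic reads in 7 daughters (44.7 to 5412 CPM, counts per 1e+06 allelic reads of the daughter). SLC6A4, the serotonin transporter, had them in 2 daughters, TTR of the choroid plexus in 6, and FEV had no row. Of 4 astrocyte, 4 oligodendrocyte and 4 microglia markers none had a row, so these lists could not be checked. The parental labels were set against imprinted genes known to be read from the paternal copy. In daughter 6, DLK1 had 1.74% of 115 reads and MEST 3.09% of 162 reads in the paternal column, which goes against the label. In daughter 3 they had 98.6% of 72 and 91.3% of 149. GRB10, an imprinted gene whose active copy depends on the tissue and which was chosen after its values were seen, lay below 10% in daughters 2, 6 and 9 and above 90% in daughters 3, 4, 5 and 10. Daughters 1, 7 and 8 had no reads or under 10 of these genes and could not be checked. The sides of daughters 2, 6 and 9 are therefore uncertain, and means of the paternal share are given with and without them. The share of the larger allele, whichever column it is in, does not depend on the labels.

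GAPDH was counted in all 10 daughters, with 644 to 10167 allelic reads each. Its paternal share was lowest in daughter 7 at 31.0% of 1121 reads (95% Wilson interval 28.4 to 33.8) and in daughter 10 at 33.3% of 2232 reads (31.4 to 35.3). It was highest in daughter 1 at 64.8% of 644 reads (61.0 to 68.3) and in daughter 6 at 60.1% of 3122 reads (58.4 to 61.8). These 4 daughters lie apart from the other 6, on both sides of balance. The other 6 were close to equal, with daughter 3 at 44.8%, daughter 9 at 46.1%, daughter 8 at 46.4%, daughter 2 at 48.8%, daughter 5 at 53.7% and daughter 4 at 54.5%. The median was 47.6% and the mean 48.3% ± 10.7 (SD, n = 10), or 46.9% without daughters 2, 6 and 9 and 47.4% with their columns exchanged. The larger allele took 58.3% ± 6.38 of the reads (SD, n = 10), from 51.2% in daughter 2 to 69.0% in daughter 7. Wilson intervals cover counting error only, since sequencing reads are not independent molecules.

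CFL1 was counted in 7 daughters and had 20 or more reads, the minimum used here for a share, in 5. The paternal column held 98.2% of 167 reads in daughter 7 (94.9 to 99.4) and 98.2% of 55 in daughter 8 (90.4 to 99.7). It held 91.7% of 241 in daughter 6 (87.5 to 94.6). In daughter 9 the side was the opposite, with 1.32% of 76 reads (0.233 to 7.08). Cofilin reads were thus assigned almost wholly to 1 parental column in these 4 animals. Daughter 5 was less unequal, with 63.6% of 33 reads, and its interval of 46.6 to 77.8 includes equal shares. Daughters 4 and 10, below the minimum, had 46.7% of 15 reads and 53.8% of 13. The mean was 70.6% ± 41.3 (SD, n = 5), or 86.7% without daughters 6 and 9. Daughter 9, whose side is uncertain, set much of that spread: without it the lowest share was 63.6%, the highest 98.2% and the mean 87.9% ± 16.5 (SD, n = 4). With the columns of daughters 6 and 9 exchanged the mean was 73.4% ± 39.4 (SD, n = 5), while the larger allele took 90.1% ± 15.1 (SD, n = 5).

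RPL38 was counted in 9 daughters and reached 20 reads in 8. The paternal column held 97.8% of 45 reads in daughter 1 (88.4 to 99.6) and 82.0% of 61 in daughter 7 (70.5 to 89.6). It held 3.70% of 27 in daughter 9 (0.657 to 18.3) and 9.84% of 427 in daughter 10 (7.36 to 13.0). The ribosomal gene was thus strongly unequal in 4 animals, with 2 on each side as labelled, or 3 on the paternal and 1 on the maternal side with the columns of daughter 9 exchanged. Where it was read most often it was near balance, with 49.3% of 1127 reads in daughter 3 (46.4 to 52.3) and 56.4% of 1189 in daughter 5 (53.6 to 59.2). Daughter 4 had 61.9% of 475 reads (57.4 to 66.2) and daughter 2 had 57.1% of 21 (36.5 to 75.5). Daughter 6, below the minimum, had 94.4% of 18 reads. The mean was 52.3% ± 32.2 (SD, n = 8), or 59.5% without daughters 2 and 9 and 62.0% with their columns exchanged, and the larger allele took 74.0% ± 19.5 (SD, n = 8).

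**Figure D1:**
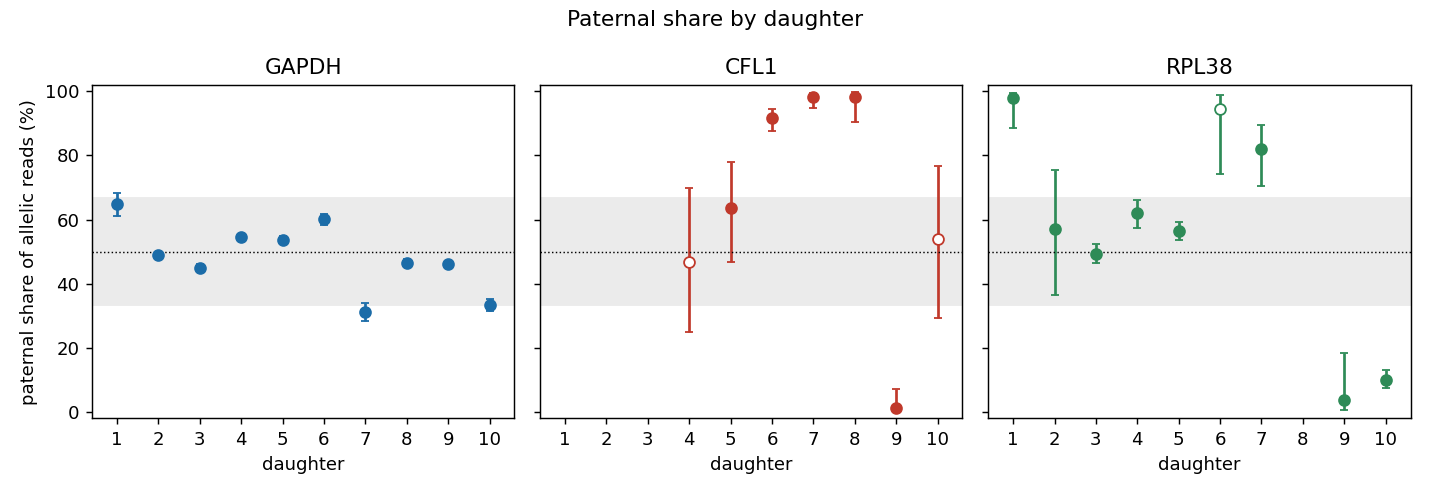
Paternal share of allelic reads in percent (vertical axis) for each daughter (horizontal axis), 1 panel per gene, with 95% Wilson intervals. Filled points have 20 or more reads and open points fewer; the grey band marks less than 2-fold between alleles and the dotted line equal shares. GAPDH stays between 31.0% and 64.8%, while CFL1 and RPL38 reach both ends of the scale.

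A measurement, meaning 1 gene in 1 daughter with 20 or more reads, was counted as unequal when the larger allele had at least 2-fold the reads of the other. GAPDH was so in 2 of 10 daughters, CFL1 in 4 of 5 and RPL38 in 4 of 8, where 11.5% of all 22693 measurements were (5.49% towards the paternal and 5.98% towards the maternal column). For GAPDH daughter 10 lies right at that limit, at 2.004-fold, with daughter 7 at 2.22-fold, daughter 1 at 1.84-fold and daughter 6 at 1.51-fold. At least 90% of reads lay on 1 allele in 4 of 5 daughters for CFL1, 3 of 8 for RPL38 and 0 of 10 for GAPDH, where 1.6% of all measurements were that unequal. Since the genes were chosen on this balance, nothing is read from these counts. The background depends on depth: the 2-fold share was 15.5% of measurements with 20 to under 100 reads, 5.51% with 100 to under 500 and 3.07% with 500 or more.

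**Figure D2:**
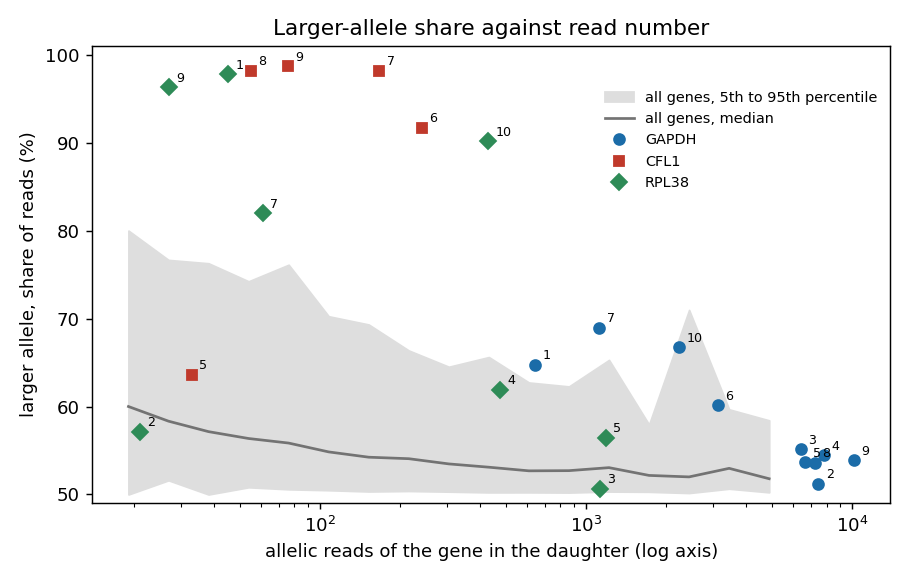
Share of reads on the larger allele in percent against the gene's allelic reads in that daughter (log axis), with daughter numbers beside the points. The grey band spans the 5th to the 95th percentile of all genes at like read numbers, in bins of 20 or more measurements. GAPDH of daughters 7 and 10 lies above 66% at 1121 and 2232 reads, and CFL1 of daughters 6 to 9 lies above 90%. For GAPDH the 95th percentile is 65.3% in the bin of daughter 7 and 71.0% in that of daughter 10. Daughter 7 thus lies above the band and daughter 10 inside it.

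The level of each gene, which the choice did not use, was then described as CPM of both alleles together. In these bulk libraries fewer cells that express a gene and less RNA per cell cannot be told apart, and a daughter with fewer positions that differ between its parents also has fewer allelic reads. GAPDH averaged 11828 ± 7829 CPM (SD, n = 10), with a median of 9601. Its level was 3124 CPM in daughter 6, 4091 in daughter 7 and 4476 in daughter 10. These are its 3 lowest levels, and each of these daughters had a larger allele above 60%. Daughter 1, the other daughter above 60%, had a high level, 21402 CPM, in the shallowest library. Of these daughters only 7 and 10 were past 2-fold. The 6 daughters with a larger allele under 60% ranged from 7259.8 CPM in daughter 5 to 24341 in daughter 9. The part of the level in the balance was not tested for this or the other genes.

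For CFL1 the less unequal daughters had the lower levels. The 3 daughters with a larger allele under 90% had 17.8 CPM in daughter 4, 26.1 in daughter 10 and 36.0 in daughter 5. Of these only daughter 5, with 33 reads, reached the minimum for a share, as daughters 4 and 10 had 15 and 13 reads. Among the 4 near single-allele animals, daughter 8 had 158, daughter 9 had 182, daughter 6 had 241 and daughter 7 had 609.5. The smaller allele of CFL1 lay between 2.39 and 20.01 CPM, resting on 1 read in daughters 8 and 9, and the larger between 9.52 and 599. Sorting alleles by size makes the larger vary more, so nothing is read from that contrast. The mean level was 181 ± 208 CPM (SD, n = 7) and rested on daughter 7, without which it was 110 CPM.

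RPL38 spanned the widest levels, from 18.0 CPM in daughter 6 to 1735 in daughter 3, a 96.3-fold range, with a mean of 699 ± 674 (SD, n = 9). Daughters past 2-fold lay at low and high levels, with daughter 9 at 64.6 CPM, daughter 7 at 223, daughter 10 at 856 and daughter 1 at 1496. Daughters under 2-fold did too, with daughter 2 at 38.4, daughter 4 at 565, daughter 5 at 1296 and daughter 3 at 1735. For RPL38 the groups of daughters past and under 2-fold overlap in level. The smaller allele went from 1.001 to 856 CPM and the larger from 17.0 to 1462. The SD of the log2 level was 2.49 for RPL38, against a median of 0.99 over 1072 genes counted in at least as many daughters, 8 of which had a larger SD. It was 1.90 for CFL1 (median 1.03 over 2463 genes) and 1.06 for GAPDH (median 0.96 over 453 genes).

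**Figure D3:**
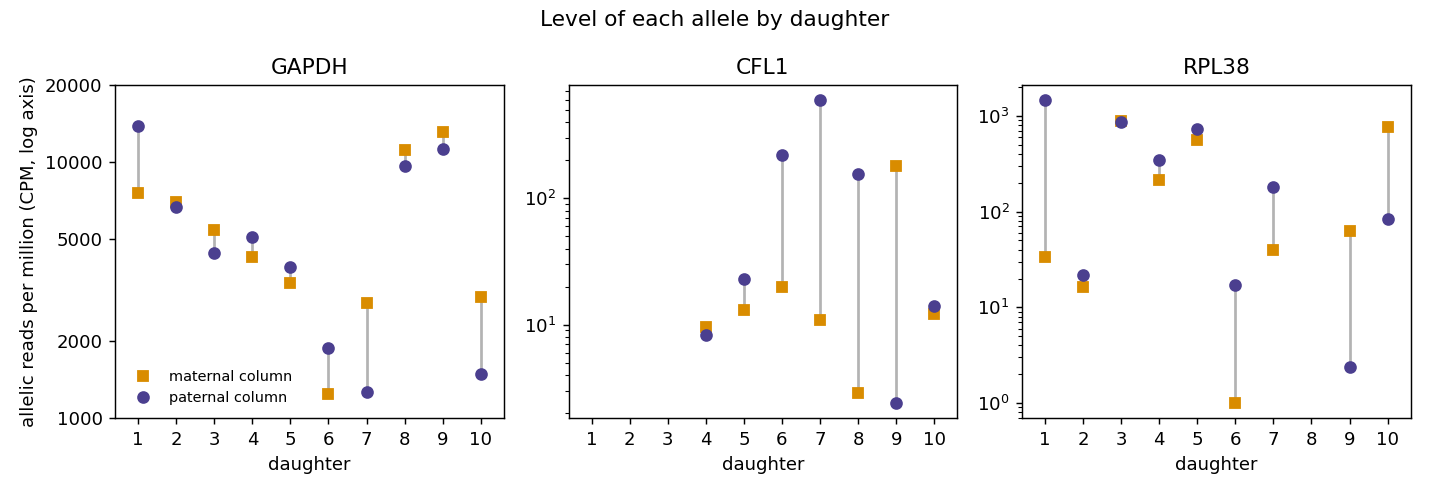
Level of the maternal (squares) and paternal (circles) allele in CPM on a log axis for each daughter, 1 panel per gene, with a grey line joining the alleles of 1 animal. For CFL1 the alleles lie farthest apart in daughters 6 to 9, and for GAPDH they differ by at most 2.22-fold, in daughter 7.

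The sample titles carry 2 prefixes, 10203 for daughters 1 to 6 and 10480 for daughters 7 to 10, treated as a batch. The log2 level of GAPDH was 13.17 ± 0.93 (SD, n = 6) in prefix 10203 and 13.26 ± 1.39 (SD, n = 4) in 10480. The difference of -0.09 was smaller than the spread (exact permutation test, two-sided, p = 0.895), and its sign changed without daughter 6, 8 or 9. CFL1 differed by -1.44 (5.75 ± 1.94, n = 3, against 7.19 ± 1.87, n = 4; exact permutation p = 0.371) and RPL38 by 0.52 (8.37 ± 2.91, n = 6, against 7.85 ± 1.86, n = 3; exact permutation p = 0.738). These 3 p-values are not adjusted. As a description, the paternal share of GAPDH was 54.4% ± 7.26 (SD, n = 6) in prefix 10203 and 39.2% ± 8.18 (SD, n = 4) in 10480. All 4 daughters of the latter lay below 50% as labelled, including daughter 9, whose side is uncertain. That of RPL38 was 64.5% ± 19.1 (SD, n = 5) and 31.8% ± 43.5 (SD, n = 3), and that of CFL1 77.7% ± 19.8 (SD, n = 2) and 65.9% ± 55.9 (SD, n = 3). The larger-allele share of GAPDH was 56.6% ± 4.96 (SD, n = 6) in prefix 10203 and 60.8% ± 8.18 (SD, n = 4) in 10480. That of RPL38 was 64.8% ± 18.9 (SD, n = 5) and 89.5% ± 7.19 (SD, n = 3). That of CFL1 was 77.7% ± 19.8 (SD, n = 2) and 98.4% ± 0.284 (SD, n = 3). All 3 daughters of prefix 10480 with enough reads were unequal for CFL1, and likewise for RPL38, and the unequal GAPDH daughters 7 and 10 carry that prefix too. Over both prefixes 11.5% of all measurements were unequal, and that share was not computed for each prefix. Libraries of prefix 10480 had 273992 to 498639 allelic reads, against 547158 to 999471 in daughters 2 to 6 and 30090 in daughter 1. Nothing is therefore read from these counts by prefix. The part of the prefix in the balance was not tested.

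Of the pairs of daughters, 5 share a labelled parent, from whom they may or may not have received the same copy. Daughters 7 and 8, with the same father, both had 98.2% of CFL1 reads in the paternal column. Daughters 1 and 7, also with that father, both read RPL38 mainly from the paternal column, at 97.8% and 82.0%, and RPL38 had no value in daughter 8. For GAPDH these sisters by the father did not lie on 1 side, with 64.8% in daughter 1, 31.0% in daughter 7 and 46.4% in daughter 8. Daughters 4 and 5, with another shared father, were alike for GAPDH (54.5% and 53.7%) and RPL38 (61.9% and 56.4%). Daughters 6 and 10 share a mother. Their maternal column held 39.9% and 66.7% of GAPDH reads, and 5.56% of 18 and 90.2% of 427 reads of RPL38. With the columns of daughter 6 exchanged, as its imprinted genes leave possible, its shares would be 60.1% and 94.4%. Both would lie on the same side as daughter 10, but the RPL38 value rests on 18 reads, below the minimum of 20. For CFL1 the maternal column of daughter 6 held 8.30% of 241 reads, or 91.7% if exchanged. That of daughter 10 held 46.2% of 13 reads, also below the minimum. The sides of daughters 1, 7 and 8 could not be checked. No pair was tested.

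The genes beside each member were examined as values that the choice did not use. Among the 10 genes on each side of GAPDH, in the order of another assembly of the species, 7 had a row and 6 had 20 or more reads in some daughter. Of their 27 measurements in daughters with GAPDH reads, 3 were past 2-fold, 11.1%, beside the 11.5% of all genes. In daughters 7 and 10, where GAPDH was past 2-fold, 0 of 3 neighbouring measurements were. With only protein-coding genes counted in the order, an alternative added after seeing the data, 1 of 6 was: TNFRSF1A, a tumour necrosis factor receptor, at 70.4% of 27 reads in daughter 7, on the other side from GAPDH. In daughter 10 that setting added TNFRSF1A at 51.1% of 88 reads and COPS7A, a signalosome subunit, at 44.6% of 92, the latter towards the side of GAPDH. MRPL51, a mitochondrial ribosomal protein gene, had 54.4% of 90 reads in daughter 7, as TAPBPL, a regulator of antigen loading, had 60.9% of 46. VAMP1, a synaptic vesicle fusion protein, had 53.2% of 154 reads in daughter 10. The shares of these 3 neighbours lie above balance where that of GAPDH lies at 31.0% and 33.3%. Their 95% Wilson intervals all include equal shares, however: 44.2 to 64.3 (MRPL51), 46.5 to 73.6 (TAPBPL) and 45.4 to 61.0 (VAMP1). VAMP1 was near balance in each of the 7 daughters that measured it, from 45.3% to 53.2%. LTBR, a lymphotoxin receptor, ranged from 37.0% to 58.3% over 6 daughters. The 3 measurements past 2-fold were NCAPD2, a condensin subunit, in daughter 2 at 69.0% of 29 reads, and TAPBPL at 67.6% of 68 in daughter 8 and 24.5% of 49 in daughter 9. GAPDH was near balance in all 3. ZNF384, a zinc finger gene, reached 63.6% of 22 reads (daughter 5) and 58.3% of 24 (daughter 6), and CD27 had no measurement. With a minimum of 10 reads, 1 of 8 neighbouring measurements in daughters 7 and 10 was past 2-fold. It was ZNF384 at 30.8% of 13 reads in daughter 10, on the side of GAPDH.

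Beside CFL1, 5 of 20 genes had a row and gave 14 measurements in daughters with a CFL1 share, of which 2 (14.3%) were past 2-fold. Both were EFEMP2, an extracellular matrix protein gene, at 69.8% of 43 reads (daughter 6) and 33.3% of 30 (daughter 9), the same side as CFL1 in both. The read numbers are small, and 33.3% is the 2-fold limit itself. MUS81, a DNA repair nuclease, was the nearest gene on that side. It lay opposite CFL1 at 38.8% of 49 reads (26.4 to 52.8) in daughter 6 and 56.2% of 64 (44.1 to 67.7) in daughter 9. Both intervals include equal shares. In the same daughters FIBP had 45.6% of 57 and 62.8% of 86, and RNASEH2C, a ribonuclease subunit, 51.5% of 169 and 52.0% of 25. In daughter 8 RNASEH2C had 56.2% of 32 reads. DRAP1, a transcription repressor subunit, had 65.3% of 170 reads in daughter 5, where CFL1 had 63.6%. MUS81 lay on that side there too, at 64.0% of 75 reads (52.7 to 73.9). EFEMP2, FIBP and RNASEH2C had 45.5% of 22, 52.2% of 23 and 47.6% of 84 in that daughter. In daughters 6, 8 and 9, 2 of 9 neighbouring measurements were thus past 2-fold, where 11.5% of all measurements were. Daughter 7, the other near single-allele animal, had no neighbour with 20 reads (MUS81 and RNASEH2C had 14 each).

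Beside RPL38, 6 of 20 genes had a row and gave 15 measurements in daughters with an RPL38 share, with 1 past 2-fold (6.67%). That was DNAI2, a ciliary dynein gene, with 10.3% of 29 reads in daughter 5. In daughters 7, 9 and 10, where RPL38 was past 2-fold and neighbours were measured, 0 of 4 were. For SDK2, a neuronal adhesion molecule, daughter 7 had 59.3% of 91 reads, daughter 9 had 51.9% of 129 and daughter 10 had 58.9% of 158. KIF19, a kinesin motor, had 60.6% of 188 in daughter 10, where RPL38 had 9.84%. These neighbours were thus near balance, or slightly paternal, in animals where RPL38 lay far to either side. BTBD17 and GPRC5C had 47.6% of 21 and 36.4% of 22 reads in daughter 5, and CD300A had no measurement.

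**Figure D4:**
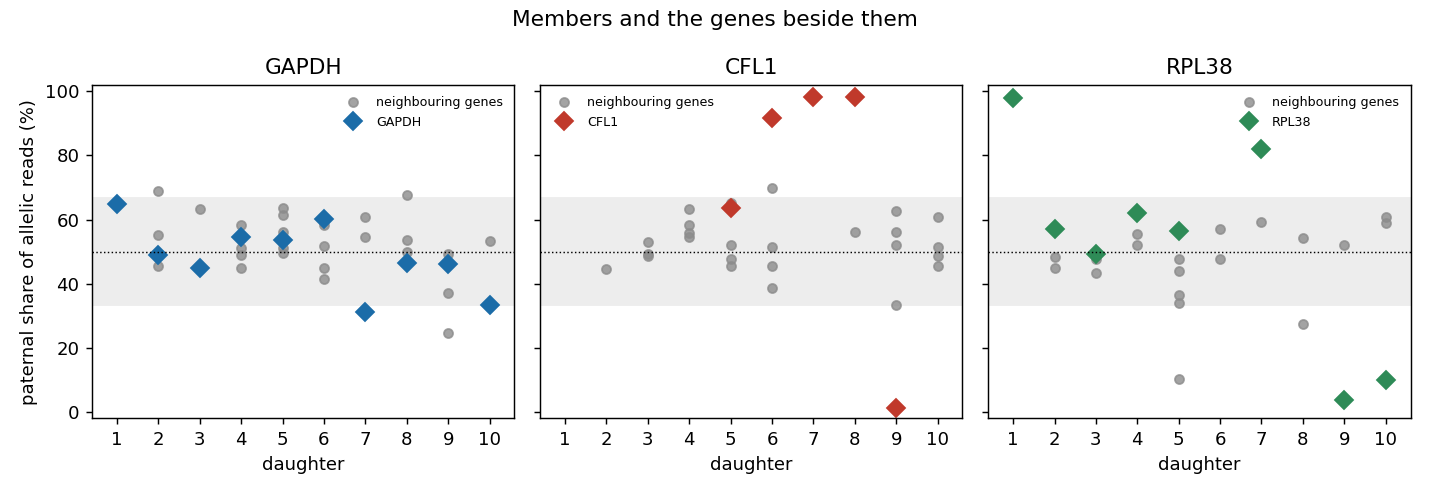
Paternal share in percent for each member (diamonds) and for the genes within 10 places on either side (grey circles) by daughter, with 20 or more reads, neighbours also where the member has no share. The grey band marks less than 2-fold. Where CFL1 and RPL38 leave the band and neighbours were measured, the neighbours stay mostly inside it. EFEMP2 lies outside the band in daughter 6 (69.8%) and at its edge in daughter 9 (33.3%). Daughter 7 has no CFL1 neighbour and daughter 1 no RPL38 neighbour with enough reads.

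Other genes of the same pathways were described from fixed lists, leaving the 3 members out. In edgeR's quasi-likelihood test of the maternal against the paternal columns, with the daughter as block, 0 of 2981 genes passed a Benjamini-Hochberg adjusted p of 0.05 (0% called). At an unadjusted p under 0.05 there were 93, and DESeq2 called 0 with 62. No list gene therefore passed in either direction. That test assumes each column to be the same parent throughout and can miss genes whose sides differ.

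Of 25 glycolysis genes 12 others had a row and 10 were tested, with a median log2 paternal over maternal of -0.02, as the median of all tested genes was -0.01. Past 2-fold were 6 of 67 measurements (8.96%), beside 11.5% of all genes, and the median larger-allele share was 53.9%, beside 55.4%. ENO1, an enolase with the most reads, had a paternal share of 53.0% ± 4.26 (SD, n = 7), PFKP, a phosphofructokinase, 48.2% ± 4.19 (SD, n = 9), and TPI1, which supplies the substrate of GAPDH, 49.8% ± 2.37 (SD, n = 5). GPI, which makes fructose 6-phosphate, had 31.9% of 1078 reads in daughter 7, and PFKL, another phosphofructokinase, 71.0% of 293 in daughter 8. ENO2, the neuronal enolase, was near balance in 6 of 7 daughters and had 1.19% of 84 reads in daughter 3. PGK1, the next enzyme after GAPDH and an X-linked gene, reached 82.8% of 558 reads (daughter 4) and 98.7% of 230 (daughter 10).

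Of 30 genes of actin depolymerisation 15 others had a row and 9 were tested, with a median log2 ratio of -0.21. Past 2-fold were 8 of 69 measurements (11.6%), at the background, with a median larger-allele share of 55.4%. WDR1, which assists cofilin, had 50.6% ± 3.63 (SD, n = 5), CORO1A, an actin-binding coronin, 49.3% ± 7.02 (SD, n = 8), and beta-actin itself, ACTB, 47.2% of 786 and 50.6% of 636 reads in 2 daughters. The cofilin phosphatases SSH1 and SSH2 reached 32.4% of 74 reads in daughter 8 and 0 of 23 reads in daughter 7, which allows a share of up to 13.0%. CORO1B went from 21.8% of 55 reads (daughter 5) to 68.6% of 35 (daughter 2). TMSB10, which sequesters actin monomers, had 48.6% of 1398 reads in daughter 5 and all 612 reads in the paternal column in daughter 7. CFL2 and DSTN, the close relatives of cofilin, had no row.

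Of the cytosolic ribosomal protein genes 28 others had a row and 14 were tested, with a median log2 ratio of -0.03. Past 2-fold were 26 of 105 measurements (24.8%), 15 to the paternal and 11 to the maternal side, beside 11.5% of all genes, and the median larger-allele share was 56.8%. Some stayed near balance, such as FAU at 48.99% ± 4.74 (SD, n = 7) and RPS21 at 54.1% ± 2.09 (SD, n = 5), while RPL35 had 42.8% ± 5.97 (SD, n = 5). Others had wide swings. RPL9 went from 3.42% of 672 reads (daughter 3) to 89.1% of 265 (daughter 10), and was past 2-fold in 5 of 6 daughters. RPL34 was so in 4 of 4, from 20.6% of 34 reads in daughter 3 to 98.1% of 54 in daughter 4. Like RPL38, RPL9 was thus unequal in some animals at read numbers well above the minimum, and its unequal daughters were not all those of RPL38.

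Of 25 genes commonly used as expression references 5 others had a row and 3 were tested, with a median log2 ratio of 0.13. Past 2-fold were 7 of 21 measurements (33.3%), with a median larger-allele share of 56.1%. ACTB and PGK1 are in the lists above too. IPO8, a nuclear import receptor, had 27.0% of 196 reads in daughter 6 and between 50% and 54.2% in 3 others, and YWHAZ, a 14-3-3 adaptor, 13.1% of 718 in daughter 3. The 5 genes are few, and nothing is called particular to them.

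**Figure D5:**
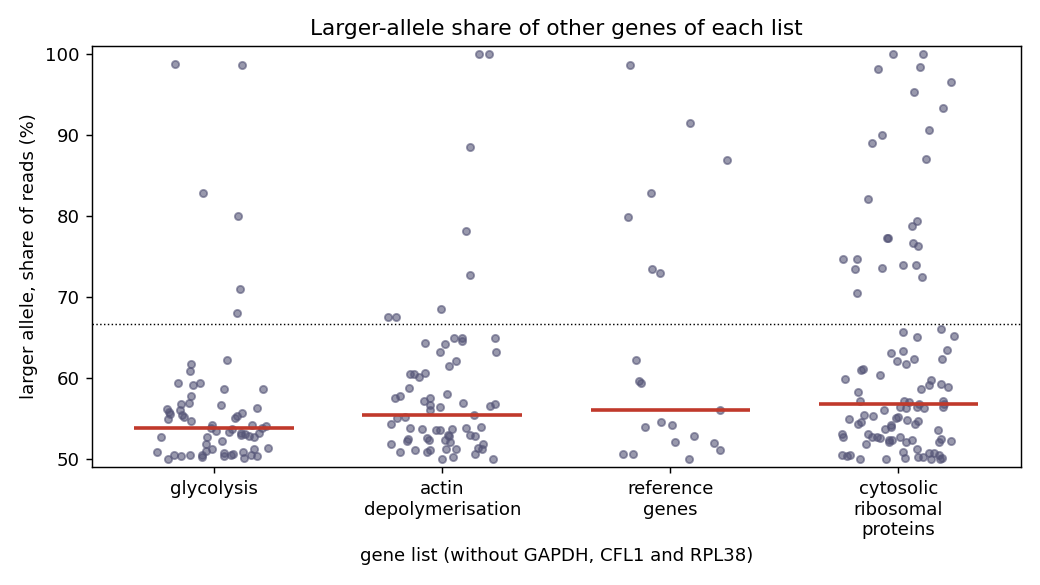
Share of reads on the larger allele in percent for every measurement with 20 or more reads of the other genes of each list, with red bars at the medians and a dotted line at 2-fold. Medians lie between 53.9% and 56.8%, and the ribosomal protein genes have 26 of 105 points at or above the line.

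Finally, the genes with the most similar pattern of paternal shares were found by the mean absolute difference in percentage points over shared daughters. For GAPDH, of 746 genes compared, these were BMPR1B (3.48 points), UBE2O (4.12) and GPT2 (4.23), each over 8 daughters, against a median of 9.83. All 3 were low in daughter 10, at 33.3%, 32.3% and 33.3%, and high in daughter 6, at 58.1%, 58.3% and 56.4%. They were picked for likeness to GAPDH, so nothing is read from their following it. In daughter 7, where GAPDH was lowest, UBE2O had 39.6% of 48 reads. GPT2 had 68.4% of 19 there, below the minimum and on the other side, and BMPR1B had no value. For RPL38, of 487 genes, the nearest included CEP192 (12.6) and CC2D2A (14.2), each over 7 daughters, against a median of 22.6. For CFL1, of 1202 genes, they were ASPSCR1 (17.3), DGKQ (20.4) and SEMA6D (23.0), over 4 daughters each, against a median of 39.4. ASPSCR1 reached 97.8% of 45 reads (daughter 6) and 97.4% of 38 (daughter 7), as CFL1 did, but 42.6% of 61 in daughter 9. The nearest genes for CFL1 and RPL38 thus still differed from them by over 10 points on average.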

How the data were processed

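Stranded paired-end libraries (101 cycles) were made from total RNA depleted of ribosomal RNA, and reads were aligned with Novoalign, per the labels' protocols and the submitters' processing notes. The authors deposited whole-number counts per gene and parental allele for each daughter; build macFas5 is per the file headers. Phasing, filters and the treatment of reads from near-identical copies are not given in the sources used here. Columns were matched to daughters by title. A gene without a value in a daughter had none in either column.

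Shares used 20 or more reads, with 95% Wilson intervals. The reads a gene has limit its precision: total depth was 30090 to 999471. Levels are CPM of all allelic reads. The 2981 genes that reached 10 reads in at least 5 daughters were tested with edgeR 4.0.16 in R 4.3.3 (glmQLFit, robust, daughter as block, library size summed over both alleles), checked on simulated data; DESeq2 1.42.0 was the other tool. Python 3.11.15 and SciPy 1.17.1 gave the exact permutation tests of level. A limit on a count of 0 is 3 counts of the total. Alternatives were other read minimums, folds, scalings, filters, windows and leaving out each daughter.

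Neighbours were taken by gene order in RefSeq's T2T-MFA8v1.1 table, which is not the build of the counts, so no coordinates are given; it matched 6566 of 7229 symbols. All its rows count as genes in the order. Members and lists were chosen with earlier results of these data known. Named genes are the 3 members, up to 4 genes of each list with most reads and up to 4 with most daughters past 2-fold, the 3 nearest patterns, the measured neighbours, and TPH2, SLC6A4, FEV, TTR, DLK1 and MEST as checks; TPI1, CFL2, DSTN, WDR1 and GRB10 were also named, some after their values were seen. A few genes chosen by this rule are left out of the text. The daughters are separate animals of 1 group.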

Additional observations from a re-analysis of the deposited data

Results flagged for a closer look

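The level of CFL1 in daughter 7, 609.5 CPM of allelic reads, stood apart from those of the other 6 daughters with a value, of which the next was 241 CPM in daughter 6. Its gap to the next daughter was 0.623 of the whole range, above the critical value of 0.568 for 7 samples. This check was made on CPM and not on the log2 level used for the prefix comparison, and its outcome can depend on that scale. Shares and levels of the 3 genes and the read totals made 7 groups of values checked in this way, 1 was flagged, and chance flags about 1 in 20 groups. In the same daughter 98.2% of the 167 CFL1 reads lay in the paternal column, so that the paternal allele alone reached 599 CPM and the maternal allele 10.9.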

How the results depend on the processing

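Of 153 alternative values for 18 results, 139 kept their direction, their side of the threshold or stayed within the spread. The count of genes called between parental columns, 0, was 2 without a read filter (FAM199X and ZIM2) and 0 to 1 when a daughter was left out (TSPAN7 without daughter 4). It was 0 with other normalisation factors, with DESeq2 and with no replicate block. No paired analysis between groups was possible because there is 1 group. The count of unequal measurements, 2604 at 2-fold and 20 reads, was 4426 with 10 or more reads, 1095 with 50 or more, 6161 at 1.5-fold and 652 at 4-fold. GAPDH was past 1.5-fold in 4 daughters and past 4-fold in 0, and RPL38 past 2-fold in 2 daughters with 50 or more reads. GAPDH's neighbours had 1 measurement past 2-fold within 5 genes on each side and 5 with 10 or more reads. The difference in GAPDH level by prefix ranged from -0.51 to 0.35 when a daughter was left out. Without each daughter in turn the mean larger-allele share was 57.1% to 59.0% for GAPDH, 87.9% to 96.7% for CFL1 and 70.7% to 77.4% for RPL38. Leaving out daughters 2, 6 and 9, exchanging their columns and counting protein-coding neighbours only were chosen after seeing the data. The cause of these changes was not tested. CFL1 and RPL38 are limited by depth, since 13 to 76 reads stand behind most of their shares in single daughters.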
